A study of Mus musculus with 12 samples.

Results

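Cloned mouse morulae that carried a control siRNA were compared with morulae from in vitro fertilisation (IVF), across the autosomal genes, to describe which processes, organelles and signalling pathways differed. The comparison used 8 of the 12 arrays of the series, 4 siCont clones and 4 IVF embryos, chosen by their titles, and 13098 named autosomal genes of the 19052 features tested. Each array was hybridised with RNA of 1 whole embryo of the (C57BL/6 x DBA/2) F1 strain that had spent 72 h in KSOM medium. The clones were made with nuclei of Sertoli cells, the nurse cells of the testis tubule, and were all male. They had received a control siRNA 6 to 7 h after activation, at the 1-cell stage. The IVF embryos were untreated, and embryos 1 and 3 were male and embryos 2 and 4 female. The other 4 arrays, of male Sertoli clones that received an siRNA against Xist (siXist clones), entered the same fit and are quoted only beside the values of the siCont clones. Nuclear transfer, the donor cell, activation and the injection of siRNA all separate the clones from the IVF embryos, so their parts in a difference cannot be told apart.

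The morula is the stage at which the cleaving embryo compacts into a ball, and its outer and inner cells begin to differ on the way to trophectoderm and inner cell mass. Cleaving mouse embryos draw mainly on pyruvate and oxidative mitochondria, and glycolysis gains weight towards the blastocyst. In a clone, the oocyte has to return the chromatin of a differentiated nucleus to an embryonic state before the genes of the embryo are switched on.

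Levels are log2 intensities relative to the 75th percentile of the array, so a level of 0 lies at that percentile. Spreads are the SD over embryos, and differences are siCont minus IVF with the SE of the limma fit. Between 50.8% (siCont 3) and 61.1% (IVF 3) of the probes on these 8 arrays were well above background. All 5 morula and pluripotency markers matched on the array were above background in all 4 IVF embryos. In the clones 4 of the 5 were above background on all 4 arrays, and Sox2 on 1. Of 8 Sertoli markers, Sox9, Dhh, Cst9 and Clu were above background on all 4 arrays of both groups, while the defining markers Amh and Wt1 were above it on 0 arrays of either. Of 5 sperm markers, Prm2, Tnp1 and Tnp2 were above background on all 4 arrays of both groups and Akap4 on 0. Summed over the markers on a linear scale relative to the 75th percentile, Sertoli genes ranged from 2.24 to 4.44 in IVF embryos and from 1.52 to 5.39 in clones, and sperm genes from 0.093 to 0.322 and from 0.155 to 0.685. List medians per embryo use each gene's level less its IVF mean, and the same median over all autosomal genes is subtracted. IVF embryos therefore lie near 0 by construction. In the longer list of 20 Sertoli genes, this median lay between -0.13 and 0.06 in IVF embryos and between 0.12 and 0.45 in clones, without overlap. Gene by gene, the groups were apart for 0 members in either direction, and 1 was higher at an unadjusted p under 0.05 (5%, against 7.35% of all autosomal genes). By the same linear marker sums, oocyte genes ranged from 4.31 to 8.93 in IVF embryos and from 9.52 to 12.7 in clones, and cumulus genes from 1.97 to 4.55 and from 4.02 to 8.73. The brightest oocyte marker, Gdf9, had a mean log2 level of 2.20 in IVF embryos and 3.14 in clones. Zp3 was also higher in clones, but the means of Bmp15, Nlrp5 and Mos were lower. Bmp15 and Mos count in these sums but were not among the autosomal genes tested. Mos was above background on 1 IVF array and 0 clone arrays. The part of these cell types in the results below was not tested. Slide and scan followed the groups, 1 of each for IVF, siCont and siXist, so array batch and group cannot be told apart. RNA of a whole embryo was measured, so fewer cells of a type and less RNA per cell cannot be told apart either.

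The clones had higher RNA of 3 glycolytic genes, of 2 hypoxia-response genes, of the BMP target Id1 and of the meiotic gene Meioc, and lower RNA of the patterning factors Isl1, Tbx18 and Gsc, of the let-7 blocker Lin28b and of the iron-regulatory protein Aco1. Adjusted p was under 0.05 for 50 of 13098 autosomal genes (0.382%), of which 30 were higher (0.229%) and 20 lower (0.153%) in siCont clones. At an unadjusted p under 0.05, 963 genes were higher (7.35%) and 785 lower (5.99%). The values of all 4 clones lay above those of all 4 IVF embryos for 785 genes (5.99%) and below them for 631 (4.82%). Among the 50 called genes 48 separated the groups in this way, and St7 and Ccdc172, named after their values were seen, did not. The split of 30 higher and 20 lower depended on scaling: it was 10 and 53 in the authors' value table, whose median autosomal difference was -1.11 against -0.02 here, 27 and 30 after normexp with quantile normalization, and 21 and 24 when the siXist arrays were left out. Clones varied more among themselves than IVF embryos, with a median SD per gene of 0.74 against 0.47. Leaving out 1 array at a time gave between 16 calls (without IVF 1) and 60 calls (without IVF 2), and 42 of the 50 genes lost the call in at least 1 of the 12 runs. The number was 17 without IVF 3, 23 without siCont 2, 30 without siCont 3 and 28 without siCont 4, and 8 against the male IVF embryos alone.

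**Figure D1:**
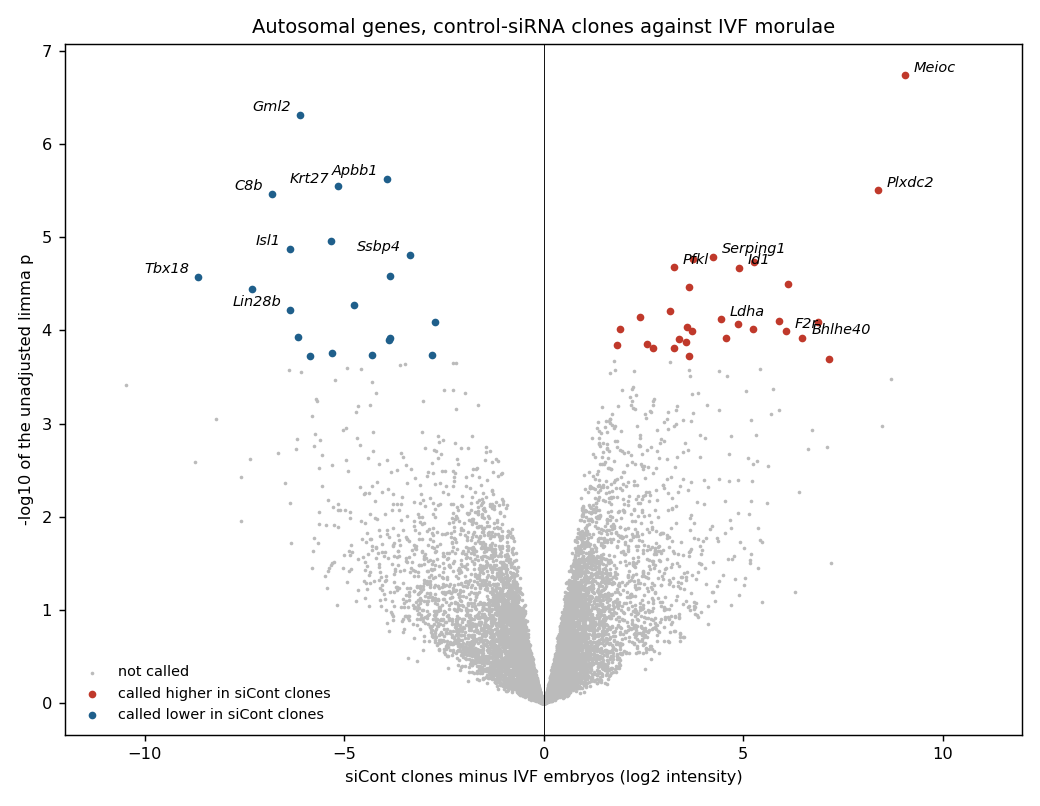
Difference between siCont clones and IVF embryos (log2, x axis) against -log10 of the unadjusted p (y axis) for 13098 autosomal genes, with values as measured and the 50 called genes marked. The 30 genes called higher and the 20 called lower stand on either side of a broad cloud centred close to 0.

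Of 91 gene lists covering metabolism, organelles, gene expression, signalling and cell types, 66 had a median within 0.25 log2 units of the median of all autosomal genes. Medians of 8 lists lay more than 0.5 above it and that of 1 list, naive pluripotency, more than 0.5 below. Taken per embryo, the list medians of all clones lay above those of all IVF embryos in 7 of the 91 lists and below them in 12. The lists described as apart or without overlap are among these. Glycolysis with lactate metabolism and the hypoxia response stood at the top, with medians of 1.41 and 0.99. Next came Hedgehog (0.94, 12 members), the interferon response (0.83) and sperm genes (0.81). In 28 lists the sign relative to all genes turned under at least 1 of 25 alternative settings, and these lists are given below by counts and members, without a median. The Hedgehog median was 0.56 relative to all genes without siCont 3 and 0.31 under normexp, that of the interferon list was 0.43 under normexp and that of the sperm list 0.35 with no filter on dim probes, so the order after the first pair depended on these choices. Calls within a list are to be read beside the shares over all autosomal genes, 0.229% called higher and 0.153% called lower.

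**Figure D2:**
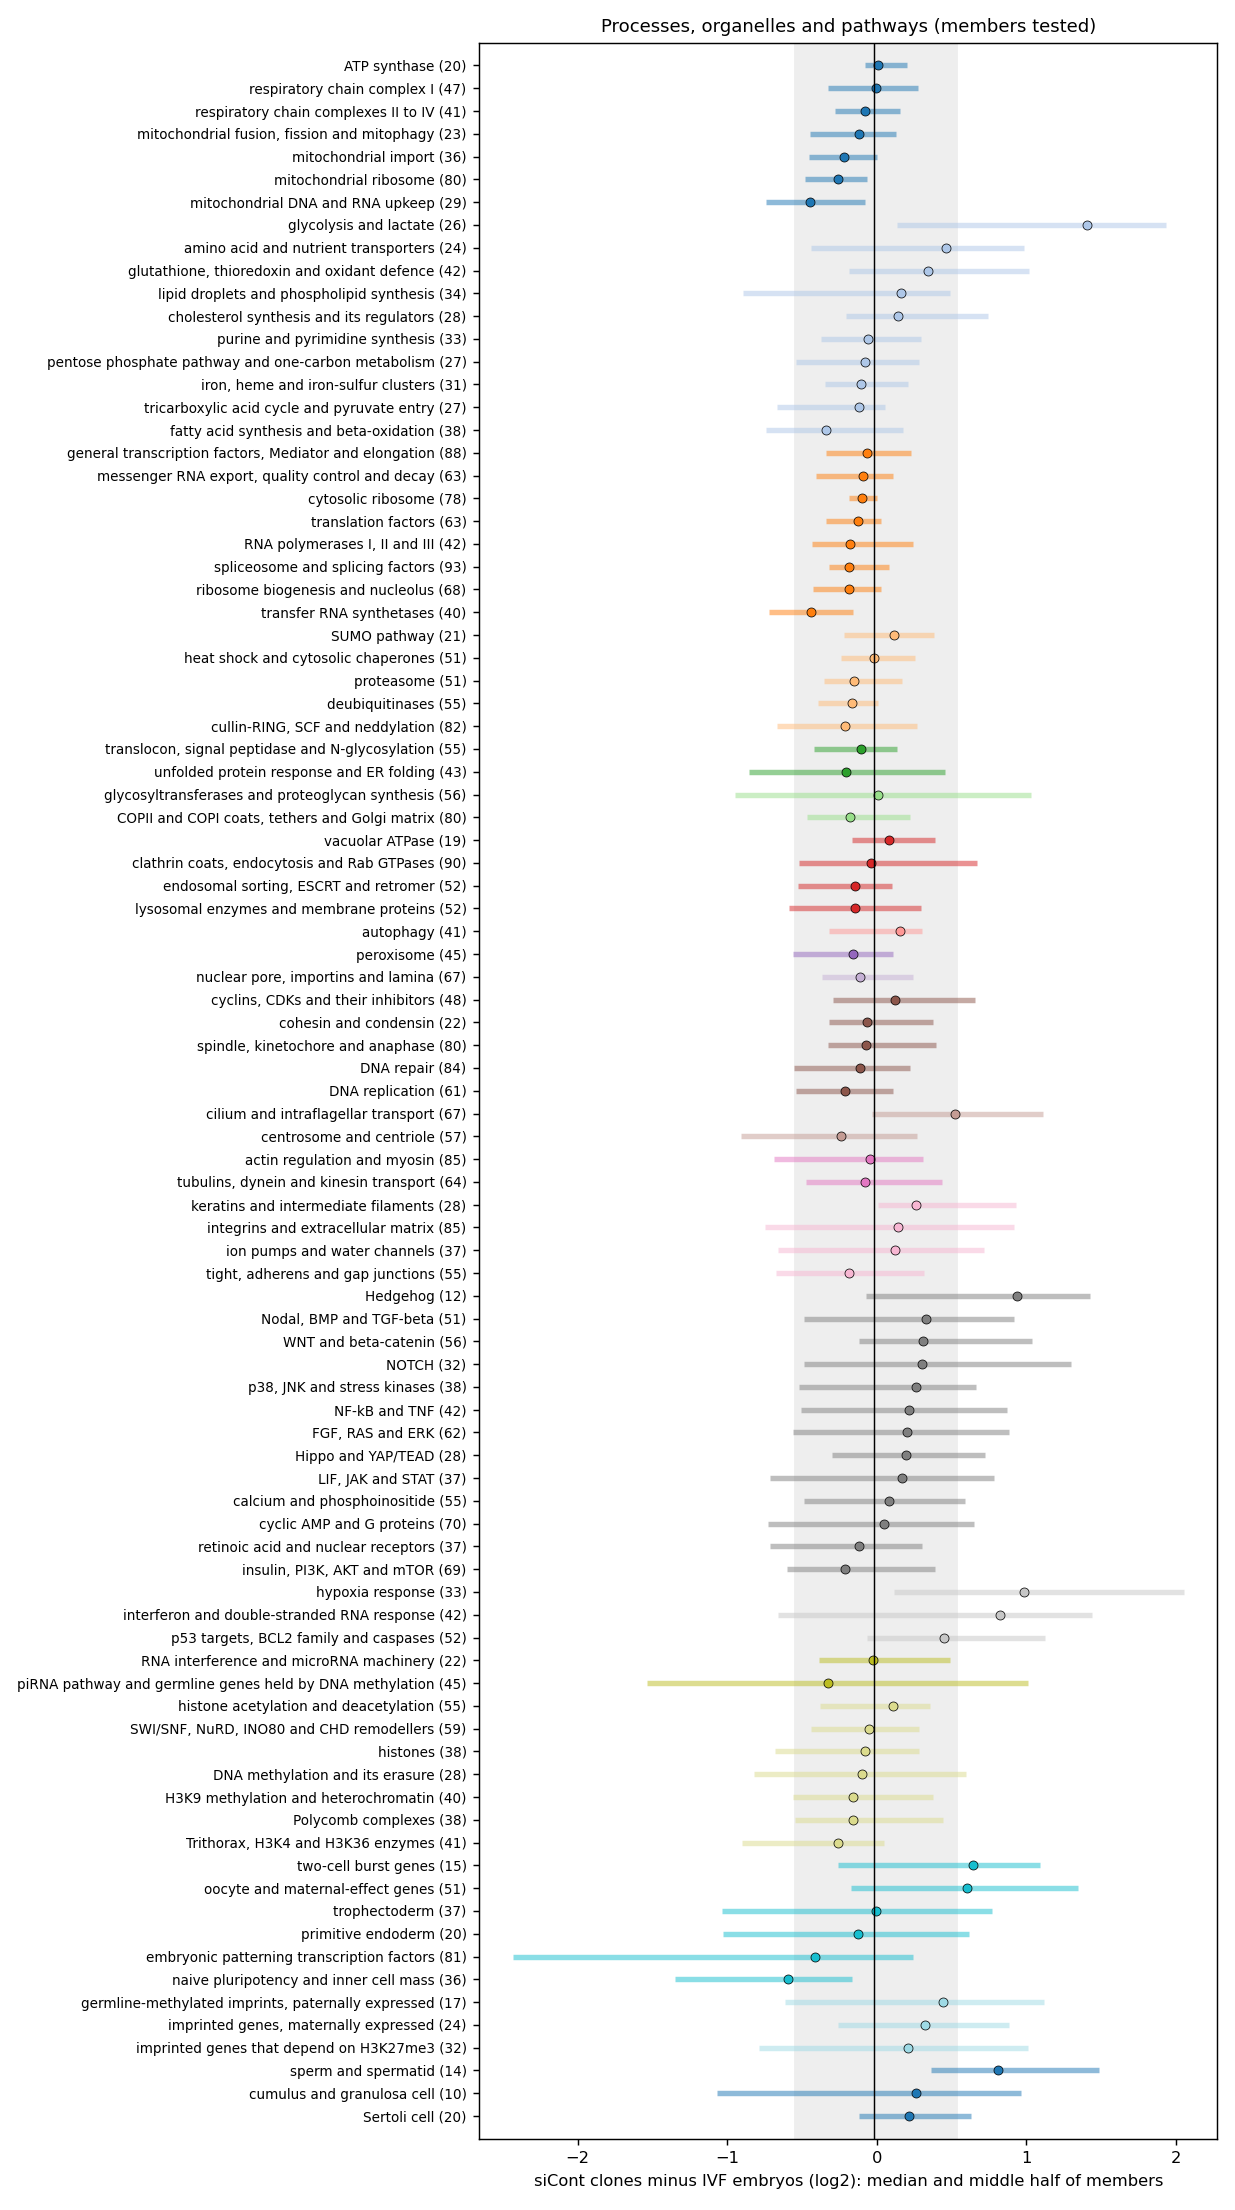
Median difference of each gene list (points, siCont minus IVF, log2) with its lower and upper quartile (bars); the vertical line and grey band give the same for all autosomal genes. Glycolysis and the hypoxia response lie farthest to the right and naive pluripotency farthest to the left.

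Among the 91 lists, glycolysis had the largest share of members with an unadjusted p under 0.05. Of its 26 tested genes, 12 were higher in siCont clones at an unadjusted p under 0.05 (46.2%, against 7.35% of all autosomal genes) and 2 were lower (7.69%). The groups were apart upwards for 9 members (34.6%, against 5.99%). Of the steps of the pathway, 3 passed the adjusted test: phosphofructokinase, triosephosphate isomerase and lactate dehydrogenase.

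Pfkl, the liver-type phosphofructokinase of the committed step, measured -4.35, -4.28, -3.74 and -6.21 in IVF embryos 1 to 4 and -1.07, -1.64, -1.46 and -1.37 in siCont clones 1 to 4. All clones lay above all IVF embryos, and only IVF 4 was not above background. Pfkl rose 9.57-fold, a difference of 3.26 ± 0.44 (adjusted p = 0.0157). It lost the call in 1 of the 12 runs that left out an array (adjusted p = 0.0676 without IVF 1). Over all 25 alternative settings Pfkl was called in 20, with an adjusted p of up to 0.1395.

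Tpi1, triosephosphate isomerase, measured 0.93, 1.02, 1.73 and 0.06 in IVF embryos and 3.73, 2.96, 3.44 and 4.01 in clones. The groups were apart, with the clones close together. Tpi1 rose 6.06-fold (2.60 ± 0.44, adjusted p = 0.0421) and lost the call in 9 of the 12 runs, with an adjusted p of up to 0.138 without IVF 1. Over all 25 alternative settings it was called in 11, with an adjusted p of up to 0.2642.

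Ldha, the lactate dehydrogenase subunit that favours lactate formation, measured 2.18, 0.81, 1.04 and -2.65 in IVF embryos and 4.05, 5.08, 5.29 and 4.74 in clones. IVF 4 was far below its group, and every clone lay above every IVF embryo. Ldha rose 21.8-fold (4.44 ± 0.69, adjusted p = 0.0343), and another Ldha probe differed by 4.76. The call was lost in 5 of the 12 runs, with an adjusted p of up to 0.124 without IVF 3. Over all 25 alternative settings Ldha was called in 15, with an adjusted p of up to 0.3019.

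Further glycolytic genes had differences above 0 that did not pass the adjusted test. Bpgm, which makes 2,3-bisphosphoglycerate, differed by 1.73 ± 0.38 (adjusted p = 0.101), Aldoa by 1.24 ± 0.30 (0.125) and the pyruvate kinase gene Pkm by 1.62 ± 0.40 (0.130). The glucose importer Slc2a1 differed by 1.81 ± 0.60 (0.261) and the lactate exporter Slc16a3 by 3.09 ± 1.08 (0.267). On the other side stood Slc16a1, a monocarboxylate transporter, at -1.50 ± 0.48 (0.231) and Pfkfb2, which sets fructose 2,6-bisphosphate, at -1.83 ± 0.54 (0.209).

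Per embryo, each gene was taken less its IVF mean, and the list median less that of all autosomal genes. On this scale the glycolysis median stood at 0.13, 0.19, 0.18 and -0.37 in IVF embryos and at 0.77, 1.77, 1.25 and 1.05 in clones. The groups did not overlap, and IVF 4 was the lowest. Without siCont 3, the clone with the fewest probes above background, the median difference relative to all genes was 1.14. In the authors' value table it was 1.42. Without centring, that table held 4 members higher at an unadjusted p under 0.05.

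Genes that cells switch on at low oxygen are driven by hypoxia-inducible factors, heterodimers of an oxygen-sensitive subunit such as Hif1a or Epas1 with Arnt. Of 33 tested hypoxia-response genes, 2 were called higher, where 0.229% of all autosomal genes were. At an unadjusted p under 0.05, 13 were higher (39.4%, against 7.35%) and 0 were lower. The groups were apart upwards for 9 (27.3%, against 5.99%). The list shares 4 members with the glycolysis list. Probes for the factors themselves did not pass the test: Hif1a differed by -1.63 ± 1.12 (adjusted p = 0.556), Epas1 by 0.12 ± 0.35 (0.906) and Arnt by 0.82 ± 0.72 (0.654).

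Bhlhe40, a transcriptional repressor of the circadian and hypoxia responses, measured -5.66, -3.22, -5.46 and -4.66 in IVF embryos and 0.07, 1.40, 3.42 and 2.04 in clones. The groups lay far apart on arrays that were all above background. Bhlhe40 rose 89.4-fold (6.48 ± 1.07, adjusted p = 0.0396), and lost the call in 9 of 12 runs, with an adjusted p of up to 0.124.

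Fam162a, a mitochondrial protein that promotes death of hypoxic cells, measured -0.07, -0.67, -0.36 and -2.89 in IVF embryos and 1.93, 3.61, 2.68 and 2.07 in clones. Again the groups were apart and IVF 4 was the lowest. Fam162a rose 11.9-fold (3.57 ± 0.60, adjusted p = 0.0414) and lost the call in 9 of 12 runs, with an adjusted p of up to 0.149.

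Ankrd37, a hypoxia-induced ankyrin repeat protein, measured 2.40, 0.59, 0.61 and 0.65 in IVF embryos and 4.89, 3.87, 7.66 and 6.17 in clones, a difference of 4.59 ± 0.85 (adjusted p = 0.0578). Ero1a, the oxidase that makes disulfide bonds in the endoplasmic reticulum, differed by 2.18 ± 0.45 (0.0821), the vasodilator peptide gene Adm by 3.42 ± 0.94 (0.177) and the mitophagy receptor gene Bnip3 by 1.05 ± 0.32 (0.218). Vegfa, the vascular growth factor, differed by 5.14 ± 1.60 (0.221) with overlapping groups. On the per-embryo scale used for glycolysis, the hypoxia median stood at 0.17, -0.01, -0.07 and 0.05 in IVF embryos and at 0.76, 0.60, 1.43 and 0.60 in clones. Without siCont 3, the highest of them, the median difference relative to all genes was 0.82.

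**Figure D3:**
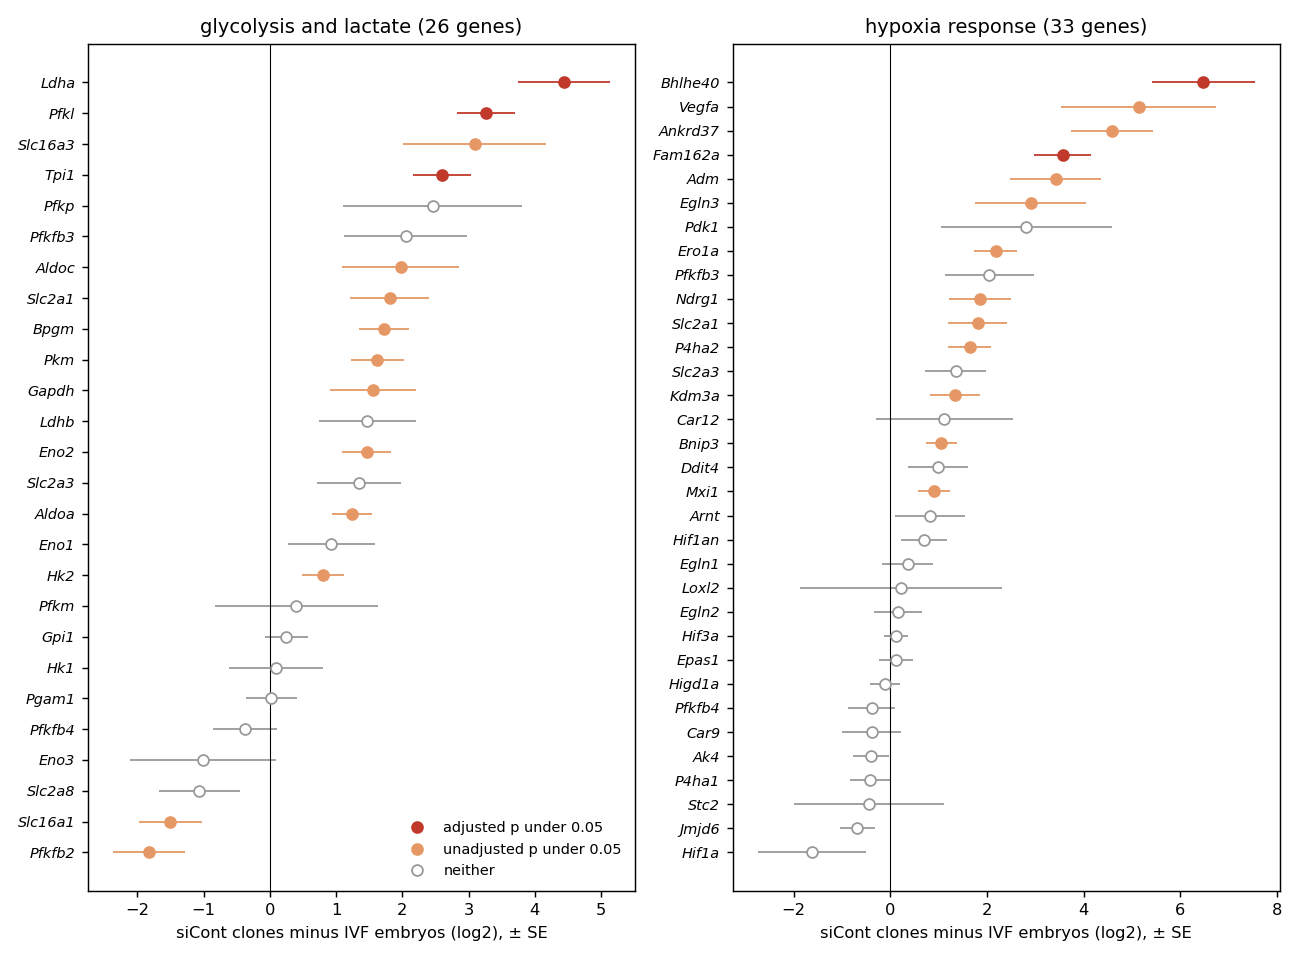
Difference between siCont clones and IVF embryos (log2, with SE) for the members of the glycolysis and hypoxia lists. Most members lie to the right of 0, and Bhlhe40, Ldha, Fam162a, Pfkl and Tpi1 are those with an adjusted p under 0.05.

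The promoters of called members of these lists are shown where the promoter set used holds a window. The core motif bound by hypoxia-inducible factors, ACGTG or GCGTG, can be looked for in them. Bhlhe40, also called, has no window there and is not shown. The windows run from 250 bases before to 50 after the RefSeq start on GRCm38.p6, 5′ to 3′ on the strand of the gene. Capitals mark either motif on either strand, and CACGTG holds it on both. The Pfkl window (chr10:78009758-78010057, minus strand) held 1 site, the Ldha window (chr7:46845554-46845853, plus strand, the farther upstream of its 2 windows) 7, the Fam162a window (chr16:36071512-36071811, minus strand) 6 and the Tpi1 window (chr6:124814109-124814408, minus strand) 0.
Pfkl: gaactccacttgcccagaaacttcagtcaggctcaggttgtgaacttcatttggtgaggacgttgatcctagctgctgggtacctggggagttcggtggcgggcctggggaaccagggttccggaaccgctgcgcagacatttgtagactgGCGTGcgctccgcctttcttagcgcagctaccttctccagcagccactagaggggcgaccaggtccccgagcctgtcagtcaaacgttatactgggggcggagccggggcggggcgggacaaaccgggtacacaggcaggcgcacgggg
Ldha: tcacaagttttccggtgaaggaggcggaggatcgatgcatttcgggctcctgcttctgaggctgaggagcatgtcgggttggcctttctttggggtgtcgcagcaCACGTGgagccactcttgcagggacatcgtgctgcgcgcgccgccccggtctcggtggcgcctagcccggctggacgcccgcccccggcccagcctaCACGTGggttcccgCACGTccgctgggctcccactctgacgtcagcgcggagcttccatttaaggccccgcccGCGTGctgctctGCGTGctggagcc
Fam162a: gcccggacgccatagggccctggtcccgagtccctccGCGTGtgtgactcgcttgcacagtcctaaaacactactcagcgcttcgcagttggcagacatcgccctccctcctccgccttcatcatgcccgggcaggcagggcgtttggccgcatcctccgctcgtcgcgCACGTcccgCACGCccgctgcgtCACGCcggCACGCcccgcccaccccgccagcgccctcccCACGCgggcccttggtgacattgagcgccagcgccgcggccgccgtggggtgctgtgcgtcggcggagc
Tpi1: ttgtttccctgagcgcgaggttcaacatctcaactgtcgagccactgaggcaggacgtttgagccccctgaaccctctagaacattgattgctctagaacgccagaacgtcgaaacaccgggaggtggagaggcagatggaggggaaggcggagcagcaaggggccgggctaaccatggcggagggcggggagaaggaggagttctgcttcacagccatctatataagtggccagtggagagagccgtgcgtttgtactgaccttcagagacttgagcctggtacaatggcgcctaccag
The motif was in 43.8% of all 32851 windows of the promoter set. It was in 58.7% of the windows of autosomal genes tested, 79.5% of those of glycolysis genes and 82.1% of those of hypoxia genes. Counted by gene, with a site in any of its windows, it was present for 63.9% of the 10454 autosomal genes tested that have a window. The same count gave 21 of 25 glycolysis genes (84%) and 26 of 28 hypoxia genes (92.9%). For genes called higher it was 17 of 24 (70.8%) and for genes called lower 8 of 15 (53.3%). A match describes the letters of the window and does not show binding.

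Mitochondrial genes of the translation apparatus had medians below that of all genes. The mitochondrial ribosome, which makes the core respiratory subunits from mitochondrial messages, had 66 of 80 tested members below 0 and a median of -0.26, and the groups were apart downwards for 10 (12.5%, against 4.82%). At an unadjusted p under 0.05, 4 were lower (5%, against 5.99% of all autosomal genes) and 0 higher, and none passed the adjusted test. The subunit gene Mrpl16 differed by -0.89 ± 0.32 (adjusted p = 0.283) and Dap3 by -0.89 ± 0.33 (0.290). Genes that keep mitochondrial DNA and RNA had a median of -0.45 with 23 of 29 below 0, among them the DNA polymerase Polg at -1.07 ± 0.43 (0.314). Of 36 import genes 27 were below 0, with the chaperonin Hspd1 at -0.83 ± 0.35 (0.338). In the respiratory chain, the numbers past an unadjusted p of 0.05 were 1 higher and 0 lower of 47 for complex I and 1 higher and 2 lower of 41 for complexes II to IV, and ATP synthase had 0 of 20 in either direction.

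Aco1, which acts as cytosolic aconitase or, without its iron-sulfur cluster, as iron regulatory protein 1, measured 4.85, 5.49, 5.01 and 4.74 in IVF embryos and 3.13, 2.36, 1.84 and 1.90 in clones. The IVF embryos were within 1 log2 unit of each other and every clone was lower. Aco1 fell 6.57-fold (-2.71 ± 0.43, adjusted p = 0.0343), another probe differed by -3.79, and the call was lost in 7 of 12 runs, with an adjusted p of up to 0.124. It was the 1 call among 27 tricarboxylic acid cycle genes and among 31 genes of iron, heme and iron-sulfur clusters. The pyruvate dehydrogenase subunit Dlat differed by -1.09 ± 0.39 (0.288) and Idh2 by -0.88 ± 0.34 (0.302).

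Gsta4, a glutathione transferase for lipid peroxidation products, measured -2.81, -2.09, -2.07 and -3.55 in IVF embryos and -0.41, -0.14, -0.21 and -0.07 in clones. The clones were tightly grouped above all IVF embryos. Gsta4 rose 5.36-fold (2.42 ± 0.37, adjusted p = 0.0333) and lost the call in 6 of 12 runs, with an adjusted p of up to 0.118 without IVF 1. It was the 1 call among 42 genes of oxidant defence, where heme oxygenase Hmox1 differed by 3.37 ± 0.95 (0.187) and glutathione synthetase Gss by -2.23 ± 0.60 (0.169). Of 38 genes of fatty acid synthesis and oxidation 24 were below 0, with a median of -0.34, while 5 were higher (13.2%, against 7.35%) and 0 lower at an unadjusted p under 0.05. Relative to all genes that median was -0.14 without IVF 3, -0.16 without IVF 2, -0.20 without siCont 2 and -0.15 with the mean of a gene's probes, against -0.32 with all arrays. Etnk1, the ethanolamine kinase of phospholipid synthesis, differed by 4.39 ± 0.80 (0.0543), with other probes at 2.04 and 1.33, the acyl-CoA synthetase gene Acsl5 by 4.41 ± 0.92 (0.0844) and the cholesterol esterifying enzyme Soat1 by 2.14 ± 0.62 (0.196). Nutrient transporters had 17 of 24 members above 0, led by the glycine transporter Slc6a9 at 3.55 ± 0.83 (0.118).

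Organelle lists of the secretory and endosomal routes had medians close to that of all genes. On the per-embryo scale used for glycolysis, 3 of these list medians were lower in all clones than in all IVF embryos. They were COPII and COPI coats, lysosomal proteins, and endosomal sorting, with clone means of -0.10, -0.16 and -0.20. The clathrin, endocytosis and Rab list had 8 of 90 members higher and 8 lower (8.89% each) at an unadjusted p under 0.05. In the Golgi, 7 of 56 glycosyltransferase genes were lower and 6 higher at that level, with background shares of 5.99% and 7.35%. The 2 with the smallest p, Galnt4, which starts mucin-type O-glycans, and Extl2, of heparan sulfate synthesis, were above background in 4 IVF embryos and in 0 clones, with lower bounds of 24.0-fold (adjusted p = 0.0543) and 20.5-fold (0.0777). In the endoplasmic reticulum, Xbp1, a transcription factor of the unfolded protein response, stood at -4.04 ± 1.14 (0.187) and the chaperone Hspa5 at -1.49 ± 0.51 (0.263), beside Ero1a and the stress pseudokinase Trib3 (2.55 ± 0.68, 0.162) with differences above 0. Lysosomal genes had 5 of 52 members lower at an unadjusted p under 0.05 (9.62%, against 5.99%) and 1 higher, among the lower ones acid sphingomyelinase Smpd1 (-1.52 ± 0.46, 0.217) and the cholesterol exporter Npc1 (-1.47 ± 0.55, 0.289).

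Atg10, the E2-like enzyme that joins Atg12 to Atg5 on the forming autophagosome, was the 1 call among 41 autophagy genes. It measured -7.89, 0.32, -6.83 and 0.68 in IVF embryos and 1.31, 0.75, 4.62 and 3.16 in clones. At this probe the male IVF embryos 1 and 3 were not above background, the female embryos 2 and 4 were, and all clones were higher still. The fitted difference was 5.89 ± 0.92 (59.3-fold, adjusted p = 0.0343). Against male embryos alone it was 9.84 relative to all genes. Both values use signals at background level. Another probe, above background in all 4 IVF embryos and all 4 clones, differed by 3.45. The call was lost in 7 of 12 runs.

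Genes of the cilium, the antenna-like organelle in which Hedgehog signals are handled, had 49 of 67 members above 0 and a median of 0.53 (0.36 relative to all genes under normexp). At an unadjusted p under 0.05, 8 were higher (11.9%, against 7.35%) and 1 lower (1.49%, against 5.99%). The transport genes Ift27 and Ift88 differed by 2.74 ± 0.72 (adjusted p = 0.154) and 1.92 ± 0.53 (0.179), and the transition zone gene Tctn2 by 4.04 ± 0.93 (0.112) with 2 IVF arrays above background. Of 12 Hedgehog genes 8 were above 0, and 1 was higher at an unadjusted p under 0.05 (8.33%, against 7.35%). On the per-embryo scale used for glycolysis, their median lay between -0.21 and 0.09 in IVF embryos. In clones it lay between 0.50 and 0.97, without overlap. In the actin list 7 of 85 were lower (8.24%, against 5.99%) and 2 higher, with the membrane linker Ezr at -2.22 ± 0.52 (0.117) and the Arp2/3 subunit Arpc1b at -2.14 ± 0.54 (0.139). Of 28 keratin and intermediate filament genes, Krt27, a hair follicle keratin, fell at least 12.5-fold (adjusted p = 0.00541), with 4 IVF arrays and 0 clone arrays above background. The nuclear lamin gene Lmna differed by 1.35 ± 0.29 (0.0961).

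Of 78 cytosolic ribosomal genes, Rpl39l, the testis-enriched paralog of Rpl39, was the 1 past an unadjusted p of 0.05 (-8.73 ± 2.19, adjusted p = 0.135). Transfer RNA synthetases had 33 of 40 members below 0 and a median of -0.44, with 2 lower (5%, against 5.99%) at an unadjusted p under 0.05, among them the seryl enzyme gene Sars at -1.04 ± 0.38 (0.286). Splicing factors had 60 of 93 below 0. On the per-embryo scale used for glycolysis, their median lay between -0.05 and 0.06 in IVF embryos and between -0.32 and -0.06 in clones, without overlap. Their median difference relative to all genes was -0.17, or -0.10 without IVF 4 or without siCont 4. Proteasome genes had 0 higher and 1 lower of 51, the immunoproteasome subunit Psmb9 at -3.09 ± 0.85 (0.177). Among chaperones the inducible Hspa1a differed by 2.78 ± 0.56 (0.0777) and Hspb1 by 3.10 ± 0.77 (0.131). Fbxo3, a substrate receptor of SCF ubiquitin ligases, fell 6.93-fold (-2.79 ± 0.49, adjusted p = 0.0465), and another probe differed by -4.63. Fbxo3 was the 1 call among 82 genes of its list and lost it in 10 of 12 runs.

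DNA replication genes had 0 higher and 3 lower of 61 at an unadjusted p under 0.05 (4.92%, against 5.99%), with the clamp loader Rfc3 at -1.10 ± 0.34 (adjusted p = 0.219) and the flap nuclease Fen1 at -0.79 ± 0.27 (0.265). Cyclins and their inhibitors had 5 higher (10.4%, against 7.35%) and 0 lower of 48, including Ccng2, a cyclin of arrested cells, at 6.62 ± 1.58 (0.122) and the CDK inhibitor gene Cdkn1a at 1.24 ± 0.55 (0.366). Of 52 p53 targets, BCL2 family and caspase genes, 8 were higher (15.4%, against 7.35%) and 0 lower. The median was 0.45. Pmaip1, which encodes the death promoter Noxa, differed by 2.70 ± 0.64 (0.121), Phlda3 by 1.55 ± 0.46 (0.205) and the apoptosome gene Apaf1 by 1.70 ± 0.58 (0.261), with other Apaf1 probes at 1.08 and -0.65. No member of these lists passed the adjusted test.

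Chromatin lists held 0 calls. The H3K9 demethylase gene Kdm4c differed by 2.20 ± 0.54 (adjusted p = 0.126), the acetyltransferase partner Brpf3 by 1.75 ± 0.39 (0.103), the remodeller Chd9 by 2.89 ± 0.72 (0.130) and the Polycomb gene Phc1 by 1.40 ± 0.38 (0.168). Histone genes had 5 of 38 lower (13.2%, against 5.99%) and 1 higher at an unadjusted p under 0.05, among the lower ones the linker histone H1f6 at -1.76 ± 0.45 (0.146) with 1 clone above background.

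Signalling lists mostly had members on both sides of 0, with 1 call. Id1, an inhibitor of bHLH factors that is switched on by BMP signals, measured -1.15, -3.27, -2.30 and -1.24 in IVF embryos and 2.09, 2.37, 3.73 and 3.45 in clones. The groups lay more than 3 log2 units apart. Id1 rose 29.8-fold (4.90 ± 0.66, adjusted p = 0.0157), another probe differed by 4.95, and the call was lost in 1 of 12 runs (adjusted p = 0.0731 without IVF 3). Other members of the Nodal, BMP and TGF-beta list did not pass: the Nodal inhibitor Lefty1, above background in 4 clones and 0 IVF embryos, had a lower bound of 10.8-fold (0.110), the ligand gene Bmp7 differed by 3.09 ± 0.83 (0.166) and the transducer Smad1 by -4.87 ± 1.82 (0.291, 1 clone above background). Another Smad1 probe, above background in 4 IVF embryos and 3 clones, differed by -1.95.

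In the JAK and STAT list the feedback inhibitor Socs3 differed by 3.01 ± 0.65 (adjusted p = 0.0961), the kinase gene Jak2 by 1.83 ± 0.42 (0.121) and Stat3 by -2.79 ± 1.02 (0.285). The NF-kB inhibitor Nfkbia differed by 2.24 ± 0.43 (0.0682) and the stress sensor Gadd45b by 2.74 ± 0.55 (0.0791). The immediate early genes Jun and Fos stood at 2.50 ± 0.64 (0.147) and 3.18 ± 0.85 (0.162). Among 56 WNT genes, with 37 above 0, the ligand gene Wnt10b differed by 3.27 ± 0.72 (0.101) and the antagonist Dkk1, above background in 4 IVF embryos and 0 clones, had a lower bound of 23.4-fold (0.173). The WNT median was 0.31, with 4 members higher (7.14%, against 7.35%) and 3 lower (5.36%, against 5.99%) at an unadjusted p under 0.05. On the per-embryo scale used for glycolysis, it lay between -0.12 and 0.05 in IVF embryos. In clones it lay between 0.09 and 0.42, without overlap. The receptors Notch1 and Notch2 stood on opposite sides, at 2.53 ± 0.73 (0.194) and -1.46 ± 0.53 (0.277), but other Notch2 probes differed by 0.53 and -2.71. Itpr1, the calcium release channel of the endoplasmic reticulum, differed by 2.74 ± 0.56 (0.0821). In the insulin and mTOR list 43 of 69 were below 0.

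The interferon list had a median of 0.83, with 10 of 42 members higher (23.8%, against 7.35%) and 4 lower (9.52%, against 5.99%) at an unadjusted p under 0.05, and 0 called. The interferon-induced Ifi27 differed by 3.73 ± 0.78 (adjusted p = 0.0863) and the DNA sensor gene Cgas by 1.90 ± 0.58 (0.218). The RNA sensor Oas1a stood at -4.20 ± 0.82 (0.0719) and the transcription factor gene Irf3 at -2.19 ± 0.45 (0.0844).

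Genes of naive pluripotency, which hold inner cells in an uncommitted state, had the lowest median of all lists, -0.60. Of 36 members 30 were below 0, and 7 were lower at an unadjusted p under 0.05 (19.4%, against 5.99%) and 1 higher. None passed the adjusted test. Utf1 differed by -1.56 ± 0.49 (adjusted p = 0.228), Tfcp2l1 by -1.34 ± 0.47 (0.267), Zfp42 by -0.90 ± 0.35 (0.310) and Pou5f1 by -0.91 ± 0.40 (0.353). Sox2 stood at -5.25 ± 2.09 (0.314), with 1 clone above background. On the per-embryo scale used for glycolysis, the list median stood at 0.03, -0.05, -0.03 and 0.04 in IVF embryos and at -0.08, -0.64, -0.45 and -0.80 in clones. The groups were apart, with siCont 1 next to the IVF embryos. Relative to all genes the median difference was -0.58, and it was -0.33 without siCont 4 and -0.37 with the mean of a gene's probes.

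Trophectoderm genes were mixed, with 18 of 37 above 0. Eomes, a T-box factor of trophoblast stem cells, differed by -5.23 ± 0.98 (adjusted p = 0.0601, 1 clone above background), while the keratin gene Krt19 differed by 4.39 ± 1.18 (0.164). Cdx2, which specifies the outer cells, measured 3.44, -2.93, -7.87 and 3.18 in clones 1 to 4, so that 2 clones were high and 2 low, and did not pass the test (-5.77 ± 2.15, 0.291). Gata6, of the primitive endoderm, stood at -0.92 ± 0.32 (0.265).

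Transcription factors that pattern the later embryo had a median of -0.41, with 53 of 81 below 0. At an unadjusted p under 0.05, 17 were lower (21.0%, against 5.99%) and 5 higher (6.17%, against 7.35%). Of the 81, 3 were called lower, where 0.153% of all autosomal genes were. Isl1, a LIM homeodomain factor of heart and motor neuron progenitors, measured -0.40, -1.07, -1.27 and -1.06 in IVF embryos and -4.94, -8.38, -7.75 and -8.13 in clones, where 1 array was above background. Isl1 fell 81.7-fold on the fitted scale (-6.35 ± 0.81, adjusted p = 0.0133), and lost the call in 1 of 12 runs (0.0541 without IVF 1).

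Tbx18, a T-box factor of epicardium and somites, measured 1.00, 0.78, 0.63 and -0.14 in IVF embryos and -7.82, -8.45, -7.85 and -8.26 in clones, not well above background in any clone. Tbx18 fell at least 93.1-fold (adjusted p = 0.0169), and another probe differed by -6.93. It lost the call in 4 of 12 runs, with an adjusted p of up to 0.0683.

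Gsc, the organizer homeobox gene goosecoid, measured -0.97, 0.91, 1.01 and -0.18 in IVF embryos and -4.84, -4.20, -7.59 and -6.03 in clones, 2 of them above background. Gsc fell 58.0-fold on the fitted scale (-5.86 ± 1.02, adjusted p = 0.0465), and lost the call in 10 of 12 runs, with an adjusted p of up to 0.175. On the per-embryo scale used for glycolysis, the median of the patterning list stood at 0.06, 0.01, 0.06 and 0.02 in IVF embryos. In clones it stood at -0.20, -0.48, -1.12 and -0.45, apart and lowest in siCont 3. Relative to all genes the median difference was -0.40. It was -0.64 without IVF 3, -0.71 without siCont 1 and -0.81 against male IVF embryos alone, but -0.13 under normexp or with no filter on dim probes and -0.19 with a stricter filter.

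**Figure D4:**
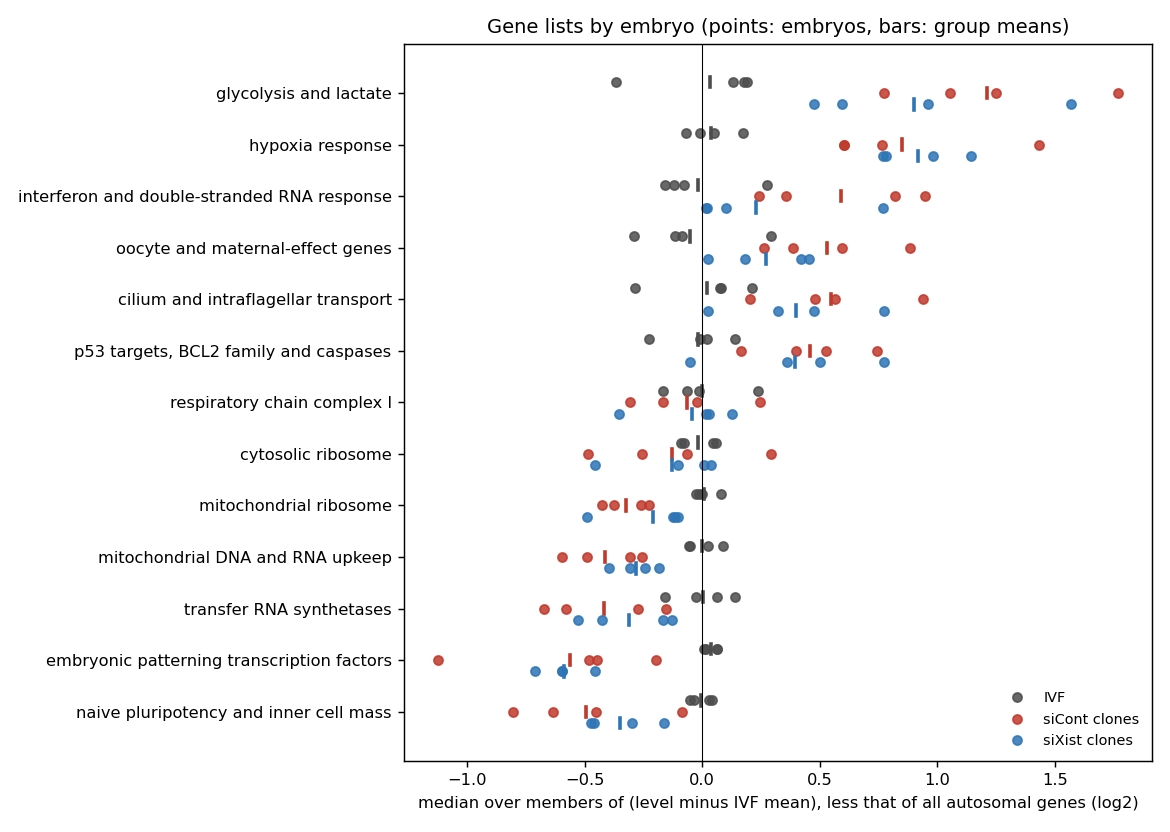
Median level of a list in each embryo, less the median of all autosomal genes in that embryo and relative to the IVF mean per gene (log2), for IVF embryos, siCont clones and siXist clones. Glycolysis and hypoxia lie higher in all siCont clones than in the IVF embryos, and naive pluripotency, patterning factors and the mitochondrial ribosome lie lower.

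Imprinted genes, expressed from 1 parental allele, held 0 calls. The splicing regulator Mbnl2, whose imprint rests on H3K27me3, differed by 3.17 ± 0.56 (adjusted p = 0.0503). Among paternally expressed genes with DNA methylation imprints, Impact differed by 1.95 ± 0.38 (0.0692), Mest by 2.81 ± 0.72 (0.144) and the zinc finger gene Plagl1 by 2.80 ± 0.81 (0.217). The growth factor gene Igf2 stood at -4.15 ± 1.57 (0.294).

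Meioc, which keeps germ cells in meiotic prophase, had the smallest p of all autosomal genes. It measured -7.74, -7.80, -8.12 and -7.43 in IVF embryos, not well above background, and 0.78, 0.59, 1.46 and 2.31 in clones. Meioc rose at least 156-fold (adjusted p = 0.000702) and was called in all 12 runs that left out an array. Other germline genes stood on both sides. The piRNA pathway genes Mael and Asz1 differed by -10.47 ± 2.00 (0.0651, 1 clone above background) and -6.20 ± 1.43 (0.122), and the RNA-binding protein gene Dazl by 2.31 ± 0.67 (0.202). Of 51 oocyte and maternal-effect genes 34 were above 0, with a median of 0.60 and 8 higher (15.7%, against 7.35%) at an unadjusted p under 0.05, led by Oog1 (1.64 ± 0.42, 0.145) and the subcortical complex gene Tle6 (1.36 ± 0.38, 0.178). Relative to all genes that median was 0.62, and it was 0.27 without IVF 2 and 0.38 under normexp. All 14 sperm genes were above 0 (against 49.2% of all autosomal genes) with 0 called. At an unadjusted p under 0.05, 4 were higher (28.6%, against 7.35%), and the groups were apart upwards for 4 (28.6%, against 5.99%). The levels were low: means of the sperm markers Prm1, Prm2, Tnp1 and Tnp2 lay between -5.42 and -3.58 across both groups.

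Further genes called higher belonged to varied functions. Plxdc2, a transmembrane receptor for the factor PEDF, measured -8.11, -8.02, -8.10 and -7.72 in IVF embryos and -1.82, 1.53, -0.10 and 1.96 in clones. No IVF embryo was above background, and Plxdc2 rose at least 83.9-fold (adjusted p = 0.00541) and kept the call in all 12 runs. F2r, the thrombin receptor PAR1, measured -0.19, -2.57, -0.46 and -1.82 in IVF embryos and 2.85, 5.54, 5.26 and 5.61 in clones, with siCont 1 the lowest clone. F2r rose 67.5-fold (6.08 ± 0.98, adjusted p = 0.0376) and lost the call in 7 of 12 runs. Serping1, the C1 inhibitor of complement, measured -2.07, -4.29 and -5.92 in the 3 IVF embryos with a usable spot and between 0.60 and 0.77 in clones. It rose 19-fold (4.25 ± 0.51, adjusted p = 0.0147), with 2 of the 3 IVF arrays above background.

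Myom3, an M-band protein of muscle, rose 13.5-fold (3.76 ± 0.49, adjusted p = 0.0148). S100a6, a calcium-binding protein, rose 9-fold (3.17 ± 0.48, adjusted p = 0.0296), and lost the call in 6 of 12 runs. Mab21l3 rose 12.5-fold, Asphd2 12.1-fold and Arrdc3, an arrestin domain protein that turns over receptors and nutrient transporters, 9.70-fold, with adjusted p from 0.0193 to 0.0432. They lost the call in 4, 9 and 10 of 12 runs, with an adjusted p of up to 0.170 for Arrdc3 without IVF 3. Dim in the IVF embryos were Ppp1r36, which rose at least 33.2-fold (0 IVF arrays above background), the cytochrome P450 gene Cyp2j6 (70.0-fold, 1 array), Vstm5 (38.9-fold, 2 arrays) and the lipid droplet protein gene Cidec (38.1-fold, 2 arrays). The folds of the last 3 use signals at background level, and their adjusted p lay between 0.0148 and 0.0373. Ppp1r36 lost the call in 6 of 12 runs, Cidec in 7, and Cyp2j6 and Vstm5 in 2 each.

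Of the genes called lower, Lin28b, which blocks maturation of let-7 microRNAs, measured 1.90, 2.22, 2.83 and 4.03 in IVF embryos and -3.90, -1.18, -5.69 and -3.64 in clones. The groups were apart and 3 clones were above background. Lin28b fell 81.5-fold (-6.35 ± 0.96, adjusted p = 0.0292) and lost the call in 6 of 12 runs, with an adjusted p of up to 0.116. Its relative Lin28a differed by -0.92 ± 0.38 (0.326).

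Tmem158, a membrane protein first described downstream of RAS, measured 2.90, 2.69, 3.28 and 1.87 in IVF embryos and -5.04, -6.14, -5.82 and -1.50 in clones, 2 of them above background. Tmem158 fell 158-fold on the fitted scale (-7.31 ± 1.04, adjusted p = 0.0195) and lost the call in 5 of 12 runs. Ssbp4, a single-stranded DNA-binding cofactor, measured 0.21, 1.64, 0.70 and 0.92 in IVF embryos and -1.74, -2.40, -2.85 and -2.89 in clones, all above background. Ssbp4 fell 10.1-fold (-3.34 ± 0.43, adjusted p = 0.0147) and lost the call in 1 of 12 runs (0.0615 without IVF 3). Shtn1, which links actin to adhesion in growing axons, fell 14.4-fold (-3.84 ± 0.53, adjusted p = 0.0169), and another probe differed by -2.25.

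Evi5l, a GTPase-activating protein for Rab proteins, measured -1.29, -0.97, -1.47 and -2.12 in IVF embryos and -6.74, -7.75, -6.64 and -6.02 in clones, not well above background in any clone. Evi5l fell at least 22.8-fold (adjusted p = 0.0124). Also above background in all 4 IVF embryos and in 0 clones were Gml2, which fell at least 29.4-fold, the complement component gene C8b (25.7-fold), the sodium channel subunit Scn2b (12.7-fold), the amyloid precursor adaptor Apbb1 (4.84-fold) and the mitochondrial oxodicarboxylate carrier Slc25a21 (4.22-fold), each a lower bound. Gml, a related gene, was also called lower, and how far the Gml and Gml2 probes share signal was not tested. Evi5l, Gml2, C8b, Apbb1 and Krt27 kept the call in all 12 runs, whereas Scn2b lost it in 11. Among all alternative settings, Gml2, C8b and Krt27 were called in each of the 24 that tested them. Apbb1 was called in 21 of 25 (adjusted p up to 0.1279) and Evi5l in 23 of 25 (up to 0.05968). The Apbb1 difference relative to all genes shrank to -0.97 in 1 of them.

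**Figure D5:**
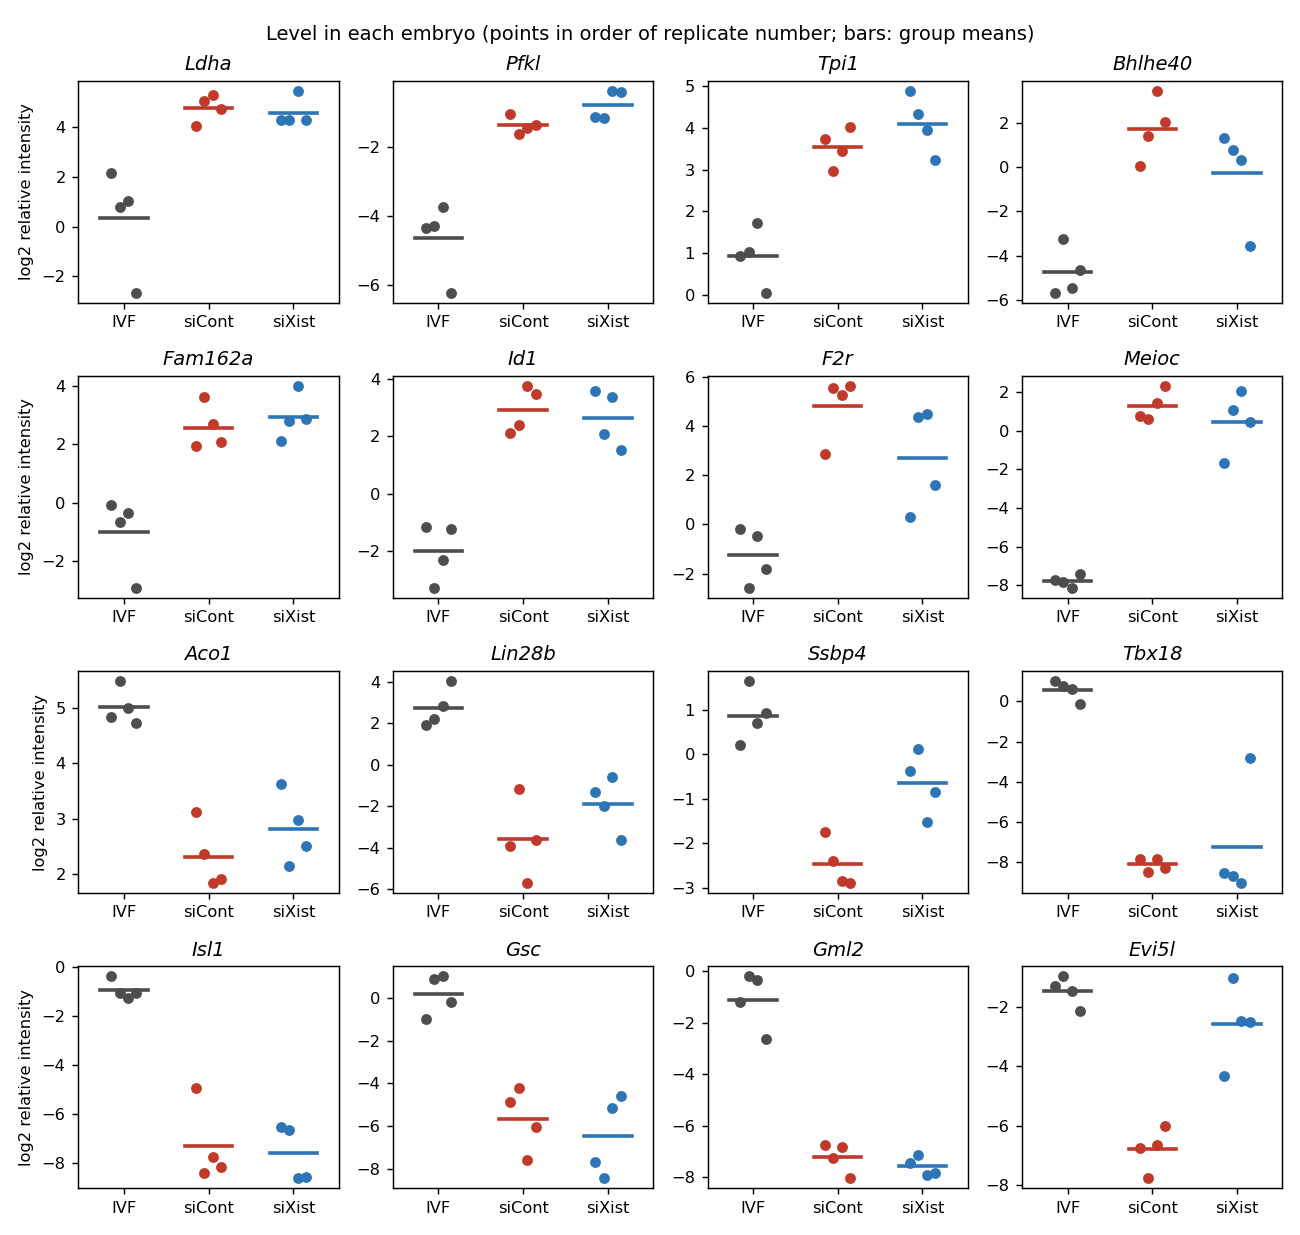
Level (log2 relative to the 75th percentile) of called genes in each IVF embryo, siCont clone and siXist clone. The 4 siCont clones and the 4 IVF embryos do not overlap for any gene drawn.

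Values of the siXist clones against the same 4 IVF embryos stand beside these, and both comparisons share the IVF arrays. In all, 70 autosomal genes were called between siXist clones and IVF embryos (0.534%), 38 higher (0.29%) and 32 lower (0.244%). For Meioc the siXist clones differed from IVF embryos by 8.25 (adjusted p = 0.00153), for Plxdc2 by 8.26 (0.00761) and for Id1 by 4.62 (0.0200). For Pfkl the difference was 3.85 (0.00770), for Ldha 4.24 (0.0314), for Tpi1 3.16 (0.0192) and for Fam162a 3.93 (0.0249). For Bhlhe40 it was 4.47 (0.115), for F2r 3.94 (0.130), for Lin28b -4.63 (0.0758) and for Aco1 -2.21 (0.0585). Ssbp4 stood at -1.52 (0.171), Tmem158 at -3.24 (0.222) and Evi5l at -1.12 (0.478), where siXist clones measured -4.32, -1.02, -2.48 and -2.51. Whether the clone groups differ from each other at these genes was not tested here. Relative to all autosomal genes, the glycolysis list had a median of 1.33 and the hypoxia list of 0.91 in siXist clones, beside 1.42 and 1.00 in siCont clones.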

How the data were processed

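RNA of single morulae was measured on 12 single-colour Agilent arrays, 1 embryo each. Per the labels, TRIzol extraction was followed by linear amplification and Cy3 labelling. Per the file headers, the deposited scanner files are intensity tables of Agilent Feature Extraction 10.5.1.1, whose processed signal had background removed and spatial trends corrected array by array. The authors' deposited value table is on a log2 scale. Compared with the scanner values, a column is the log2 processed signal shifted by 1 array constant and centred on each probe's median, with the same direction. The origin of that constant is unknown. In replicate order, the medians of its columns were 0.56, -0.0069, 0.75 and 0.32 (IVF), then -0.05, -0.72, -1.62 and -0.12 (siCont), then 0.01, 0.54, -0.18 and -0.22 (siXist).

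The log2 processed signal was set relative to its 75th percentile over non-control probes, outlier spots were left out, and there were 0 saturated spots. Probes well above background on at least 3 of 4 arrays of a group were kept (24857 of 41174), and the brightest probe represented a gene. Accessions were matched without versions to RefSeq (GRCm38.p6), naming 26888 probes (65.3%) and 18327 symbols. No genome coordinates other than the promoter windows of that table are given. All 12 arrays were fitted in limma 3.58.1 under R 4.3.3 with male and female IVF as separate means weighted equally, two-sided, with Benjamini-Hochberg adjustment over 19052 features at 0.05. The script was tested on simulated data. The labels do not say that replicates came from separate sessions, so p-values measure the spread between these embryos. The number of arrays limits precision. Where a gene was well above background on 0 arrays of a group, the fold is a lower bound: per array of that group, the higher of the lowest signal well above background and the measured signal was used.

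Groups came from the labels. The comparison, the gene lists and the alternatives were chosen with earlier results of these data known. Named genes were the 8 called, non-overlapping genes with the largest difference each way among those detected on at least 3 arrays in both groups, the 8 with the smallest p each way among the others, and up to 4 members per list with the smallest p. Adm, Aldoa, Pkm, Slc2a1, Slc16a1, Slc16a3, Pfkfb2, Vegfa, Hif1a, Epas1, Arnt, Hspa5, Cdkn1a, Cgas, Pou5f1, Sox2, Cdx2, Gata6, Igf2, Arrdc3, Asphd2, Cidec, Gml, Scn2b, Slc25a21, Kcnk4, Wfdc15a, St7 and Ccdc172 fall outside this rule and were picked with their values known. Some genes that the rule or a list names are not reported here, and counts include them, except the count of groups examined for an embryo that stood apart. The alternatives comprised normexp (offset 50) with quantile normalization, quantile normalization alone, the authors' table, other filters, the mean of probes, a floor, array weights, other sets of arrays, robust eBayes, a replicate block and runs that left out 1 array.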

Additional observations from a re-analysis of the deposited data

Results flagged for a closer look

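In 6 of 117 groups of 4 embryos looked at, 1 embryo stood far from the other 3, and chance gives about 1 in 20 such groups. Among called genes the level of IVF 2 was apart for Kcnk4, a potassium channel (-4.54, against -6.003 to -5.786 in the others). IVF 4 was low for Wfdc15a (0.51, against 2.07 to 2.39) and for the median of the glycolysis list relative to all genes (-0.37, against 0.13 to 0.19). Among clones, siCont 1 was low for F2r (2.85, against 5.26 to 5.61), siCont 4 for the lymphocyte antigen gene Ly86 (-2.22, against -0.99 to -0.82), and siCont 3 high for Slc25a21 (-6.73, against -8.221 to -8.002), where no clone was well above background. The part of these embryos in the differences was not tested beyond the runs that left out 1 array.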

How the results depend on the processing

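The medians of the glycolysis, hypoxia, naive pluripotency and mitochondrial ribosome lists kept their sign relative to all autosomal genes in all 25 alternatives, and 0 of the 50 called genes changed direction. The median difference over autosomal genes was -1.11 in the authors' value table. The number of called genes was 30 with a stricter filter on dim probes, which tests fewer genes, 8 against male IVF embryos only, with fewer samples, and between 16 and 60 when 1 array was left out. Replicate numbers did not pair the embryos: the correlations of deviations of embryos with the same number were 0.0622, 0.0571, -0.11 and -0.134. With the replicate number as a block, 8 genes were called. Over the 25 alternatives Meioc was called in 25, Plxdc2 in 24 (adjusted p up to 0.08607) and Id1 in 22 (up to 0.1014). Lin28b was called in 16 (up to 0.1389), Atg10 in 14 (up to 0.2474), F2r in 13 (up to 0.2396) and Bhlhe40 in 11 (up to 0.1244). With the mean of the probes of a gene in place of the brightest, the difference turned to 0.42 for Atpaf1, 0.40 for Rpsa, 0.33 for Ddx56, -0.71 for Parn, 0.12 for Atp6v0a1, -0.032 for Xrcc2 and -0.012 for Aqp9, and with a floor under dim signals to -0.18 for Spag16. The cause was not tested. Genes whose signal in a group was at background have only a bound there.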
